A study of Mus musculus with 2 samples.

Results

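Neuregulin 1, the epidermal growth factor (EGF) family ligands Btc, Hbegf, Areg and Ereg, and the receptors Egfr, Erbb2, Erbb3 and Erbb4 were read in 1 single-cell library of sorted cells from denervated mouse muscle. These 9 genes, of 32287 features in the matrix, were chosen by their summed UMIs and levels per cell class in this library, so the levels below are descriptions and carry no test. The cells came from the tibialis anterior and gastrocnemius of male S100GFPtg mice aged 2 months, labelled WT, harvested 7 days after sciatic nerve crush. Cells positive for GFP and negative for propidium iodide were sorted, so that every cell passed a gate on a reporter driven by the S100B promoter, and no uninjured or GFP- cells were analysed here. The sources differ on whether 1 mouse or pooled mice gave this library, and with 1 library no spread between animals could be measured.

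Ligands of this family are mostly made as membrane-bound precursors that proteases, among them ADAM proteases, can release. They bind receptors on the same or neighboring cells. Egfr, Erbb2, Erbb3 and Erbb4 signal as pairs. Erbb2 has no known ligand of its own, Erbb3 has a weak kinase and relies on its partner, and the Erbb2 and Erbb3 pair is the neuregulin receptor of Schwann cells (SCs). Neuregulin 1 from axons is known to set SC survival and myelination, while Btc, Hbegf, Areg and Ereg are ligands of Egfr, and some of them bind Erbb4 also.

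The ligands share an EGF-like stretch whose 6 cysteines form 3 disulfide bridges, and its coding sequence is shown to place the members beside each other before their levels. The sequences are from the canonical GENCODE transcripts on GRCm39, 5′ to 3′ on the coding strand, with the cysteine codons in capitals. Hbegf is not shown.
Nrg1: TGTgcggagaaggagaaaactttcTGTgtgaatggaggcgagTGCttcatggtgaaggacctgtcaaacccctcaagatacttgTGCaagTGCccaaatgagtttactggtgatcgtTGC
Btc: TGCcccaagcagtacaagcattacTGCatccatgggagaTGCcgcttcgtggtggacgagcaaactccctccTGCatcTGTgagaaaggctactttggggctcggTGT
Areg: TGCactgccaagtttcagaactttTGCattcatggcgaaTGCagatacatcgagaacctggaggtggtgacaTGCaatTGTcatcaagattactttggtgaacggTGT
Ereg: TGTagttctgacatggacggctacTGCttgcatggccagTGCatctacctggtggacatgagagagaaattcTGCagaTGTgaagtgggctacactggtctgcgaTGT
The stretches of Btc, Areg and Ereg were 108 bases long and had the same spacing of cysteine codons, with 7, 4, 10, 1 and 8 codons between neighbors, whereas that of Nrg1 was 120 bases long with 7, 5, 13, 1 and 8 codons. In each of the 4 genes it was split over 2 exons, with the last 31 bases in the second of these. For Nrg1 they were exon 2 (chromosome 8, 32339338 to 32339426) and exon 3 (32327726 to 32327756) on the minus strand. For Btc they were exon 3 (chromosome 5, 91513980 to 91514056) and exon 4 (91510280 to 91510310) on the minus strand. For Areg they were exon 3 (chromosome 5, 91291473 to 91291549) and exon 4 (91292193 to 91292223) on the plus strand. For Ereg they were exon 3 (chromosome 5, 91236355 to 91236431) and exon 4 (91236940 to 91236970) on the plus strand.

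The genes of Ereg (91222157 to 91241505), Areg (91287451 to 91296291) and Btc (91505120 to 91550883) lie on the same chromosome 5. Nrg1 spans 1071 kb on chromosome 8 (32303906 to 33374825) with 30 annotated coding transcripts, and Erbb4 spans 1076 kb on chromosome 1 (68071345 to 69147619). Egfr lies on chromosome 11 at 16702198 to 16868158, Erbb2 on chromosome 11 at 98303203 to 98328542, Erbb3 on chromosome 10 at 128403392 to 128425811 and Hbegf on chromosome 18 at 36637980 to 36649677. Counts were made near the 3′ ends of transcripts, so isoforms of a gene, including the axonal and soluble forms of Nrg1, could not be told apart.

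The library held 36400 barcodes with 170648616 unique molecular identifiers (UMIs), and 8701 barcodes with at least 5000 UMIs, over 200 genes and under 10% mitochondrial counts were kept. Of these, 8272 fell in 6 classes by marker UMIs, none of the markers being a member. There were 80 SCs, 6191 myeloid cells, 1310 fibroblasts, 386 tenocytes, 47 endothelial cells and 258 satellite cells, with median depths from 7578 UMIs in endothelial cells to 15552 in fibroblasts. Another 326 cells had markers of several classes and were set aside as mixed. The class names stand for these gates, and free RNA and shared droplets were not removed. The sums of the class markers bear on the values below. In SCs the 6 Schwann markers summed to 3979 UMIs per 1e+06 UMIs of the class (CPM) with none at 0, beside 285 CPM of fibroblast, 130 CPM of endothelial, 41.3 CPM of myeloid and 38.8 CPM of tenocyte markers. The endothelial class had 4138 CPM of its own 8 markers beside 625 CPM of the smooth muscle and pericyte list, mostly Rgs5, and was led by Ccl21a and Mmrn1, which are known from lymphatic vessels. The satellite class had 1102 CPM of its own markers and 6339 CPM of the 4 muscle fibre markers. It also had 556 CPM of tenocyte markers, mostly Chodl, and 351 CPM of fibroblast markers, mostly Dpt. Of the barcodes, 372 were also among those of the GFP- library, 82 of them in the 6 classes, and no ratio of a member moved beyond its interval without them.

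Btc, which encodes betacellulin, stood in SCs. The 80 SCs held 768 UMIs of Btc, or 961 CPM (894 to 1031, exact Poisson 95% interval, counting error only, as for all CPM below). A single SC held between 0 and 42 UMIs with a median of 8, and 55 of the 80 held 5 or more. By contrast, Btc was at 2.89 CPM (1.25 to 5.69) in satellite cells, 2.16 CPM (1.58 to 2.89) in fibroblasts, 0.932 CPM (0.731 to 1.17) in myeloid cells and 0.209 CPM (0.00530 to 1.17) in tenocytes, and no UMI was found in the 47 endothelial cells. After every cell was thinned to 5000 UMIs, 90% of SCs (81.2 to 95.6%, exact binomial interval) and 0.420% of myeloid cells (0.275 to 0.615%) held a Btc UMI. Without thinning, at a median of 8562 UMIs in an SC and 11398 in a myeloid cell, these shares were 92.5% and 0.614%. The level in SCs was 333-fold (168 to 773) that in satellite cells and 1030-fold (810 to 1329) that in myeloid cells, and at least 154.8-fold higher than in endothelial cells, counted against a floor of 3 UMIs over that class, with an exact lower limit of 125.6-fold for the ratio. In shallower cells of at least 1000 and under 5000 UMIs it was 113-fold (86.1 to 148) that in myeloid cells, which held 6.59 CPM of Btc there. Of the 73 Btc UMIs of the myeloid class, 28 were in 1 cell that also held 29 UMIs of the Schwann markers and 120 of the myeloid markers. Ranked by fold over the other classes among the 3192 genes with at least 50 UMIs in SCs, Btc took place 24 and Erbb3 place 83.

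Among the receptors, Erbb3 was also highest in SCs. It reached 234 CPM (202 to 270, 187 UMIs) there, with between 0 and 11 UMIs in a cell and a median of 2. Fibroblasts had 3.65 CPM (2.87 to 4.57) and myeloid cells 2.35 CPM (2.02 to 2.71), tenocytes and satellite cells had 1 UMI each, and endothelial cells had none. SCs stood 64.1-fold (48.9 to 84.9) above fibroblasts. An Erbb3 UMI was found in 68.8% of thinned SCs (57.4 to 78.7%) and in 1.07% of thinned myeloid cells (0.825 to 1.35%), beside 83.8% and 2.73% unthinned. Unthinned, 62 of 80 SCs held both, 12 held Btc alone, 5 held Erbb3 alone and 1 held neither. Of the 76 Erbb3 UMIs in fibroblasts, 42 were in the 264 cells gated on Pi16 and Dpp4, genes of adventitial fibroblasts, where the level was 8.49 CPM (6.12 to 11.5), and no cell of this subset held more than 2.

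Erbb2, the partner that signals with Erbb3, was sparse in every class. SCs had 12 UMIs, or 15.0 CPM (7.76 to 26.2), fibroblasts 7.30 CPM (6.18 to 8.55), tenocytes 6.91 CPM (4.76 to 9.70), endothelial cells 6.2 CPM (1.28 to 18.1, 3 UMIs) and satellite cells 5.06 CPM (2.76 to 8.48). In this order SCs and fibroblasts differed by 2.06-fold with an interval close to 1 (1.04 to 3.70), and the other 4 could not be separated from their neighbors. Myeloid cells were the exception, with 9 UMIs in 6191 cells and 0.115 CPM (0.0526 to 0.218), and satellite cells, the lowest of the others, stood 44.0-fold (17.7 to 115) above them. This difference depended on the depth required, since myeloid cells of 1000 to under 5000 UMIs had 1.43 CPM (0.981 to 2.02), fibroblasts 5.44 CPM (3.98 to 7.25), and the 55 satellite cells no UMI, with an exact upper limit of 21.1 CPM. Thinned to 5000 UMIs, 7.5% of SCs (2.80 to 15.6%) and 0.0485% of myeloid cells (0.00999 to 0.142%) held an Erbb2 UMI, beside 12.5% and 0.129% unthinned. All 10 SCs with an Erbb2 UMI also held Erbb3, which 67 of all 80 SCs did, and 57 SCs held Erbb3 without an Erbb2 UMI, which at this depth does not show that Erbb2 was absent from them.

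Erbb4, which binds neuregulins and Btc, was at the limit of detection. It had 9 UMIs in all 8272 gated cells and none in the 80 SCs, which by the floor of 3 counts allows a share of up to 3.75% of SCs with a UMI and a level of up to 3.75 CPM (exact upper limits of the 95% intervals, 4.51% and 4.61 CPM), and no order of the classes could be read.

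Egfr, the receptor of Btc, Hbegf, Areg and Ereg, was spread over the stromal classes. Fibroblasts had 748 CPM (736 to 760), tenocytes 431 CPM (413 to 450), satellite cells 231 CPM (214 to 250), myeloid cells 72.8 CPM (70.9 to 74.7), SCs 33.8 CPM (22.3 to 49.1) and endothelial cells 20.7 CPM (9.92 to 38.0). Each step in this order exceeded counting error, apart from the last one, whose ratio of 1.63 had an interval from 0.766 to 3.78. A fibroblast held a median of 8 Egfr UMIs, a tenocyte 3 and a satellite cell 2, and the highest fibroblast held 124. In thinned cells an Egfr UMI was found in 88.3% of fibroblasts (86.5 to 90.01%), 69.9% of tenocytes (65.1 to 74.5%), 53.5% of satellite cells (47.2 to 59.7%) and 3.75% of SCs (0.780 to 10.6%), and unthinned in 96.5%, 87.3%, 68.2% and 7.5%. In cells of at least 1000 and under 5000 UMIs the 4 highest classes lay closer. Fibroblasts had 480 CPM (465 to 495) there, tenocytes 309 CPM (281 to 339), satellite cells 246 CPM (178 to 331) and myeloid cells 147 CPM (142 to 152). In cells of at least 5000 UMIs the Egfr of SCs and endothelial cells rested on single cells. One SC held 18 of the 27 UMIs, together with 14 UMIs of the fibroblast markers, and without it the class was at 11.7 CPM. In the endothelial class all 10 UMIs were in 1 cell, which held 12 tenocyte marker UMIs beside 8 of the endothelial list. The part of RNA from fibroblasts and tenocytes in these values, and in the Egfr of satellite cells, was not tested.

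Within fibroblasts Egfr ranged from 415 CPM (324 to 523) in the 11 cells gated on Apod, Tenm2 and Col28a1, and 463 CPM (419 to 512) in the 76 cells gated on Gdf10 and Inmt, to 926 CPM (899 to 954) in the 287 cells gated on Dkk2, Bmper and Lsamp. The Pi16 and Dpp4 subset was at 795 CPM (770 to 820) and the Smoc2, Cxcl14 and Hsd11b1 subset at 541 CPM (514 to 569). Every one of the 140 fibroblasts with an Erbb2 UMI also held Egfr, which 1264 of all 1310 fibroblasts did.

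**Figure D1:**
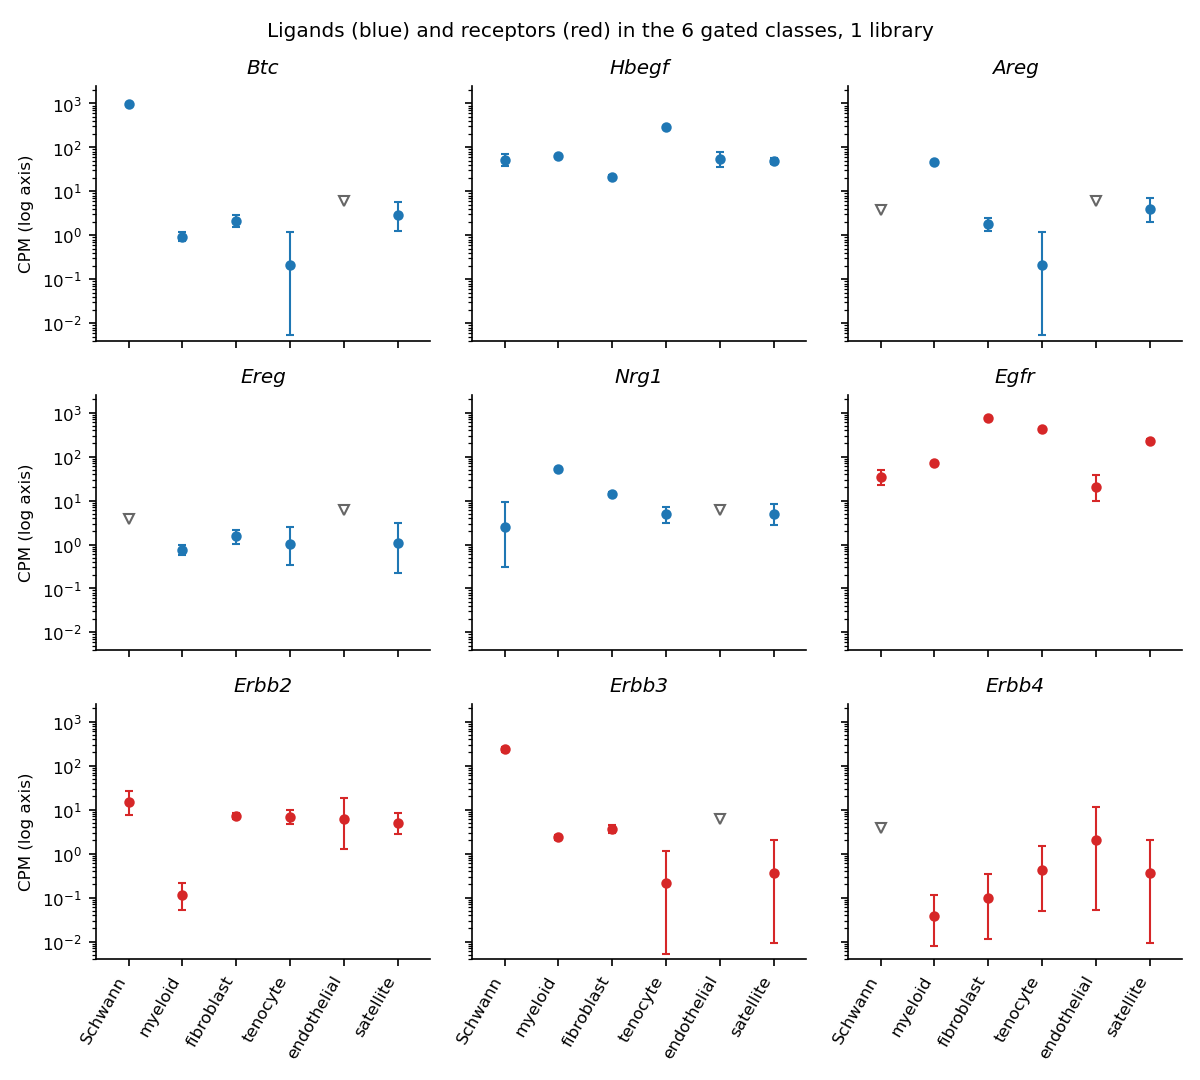
CPM of the 9 members in the 6 gated classes of 1 library, on a log axis, with ligands in blue and receptors in red. Points are summed UMIs of a class over its total, bars are exact Poisson 95% intervals for counting error, and open triangles mark the floor of 3 UMIs where a class had none. Btc and Erbb3 are highest in Schwann cells (961 and 234 CPM), Egfr in fibroblasts (748 CPM), Hbegf in tenocytes (297 CPM), and Nrg1 and Areg in myeloid cells (53.4 and 46.1 CPM).

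Hbegf, which encodes heparin-binding EGF-like growth factor, was highest in tenocytes. They had 297 CPM (282 to 313, 1420 UMIs), 4.77-fold (4.49 to 5.06) the 62.4 CPM (60.6 to 64.1) of myeloid cells. Endothelial cells had 53.8 CPM (35.1 to 78.8), SCs 52.5 CPM (37.9 to 71.0), satellite cells 49.1 CPM (41.2 to 58.1) and fibroblasts 21.3 CPM (19.3 to 23.3). From myeloid to satellite cells the neighbors in this order could not be told apart, and fibroblasts were lower than satellite cells by 2.31-fold (1.89 to 2.81). Of thinned tenocytes, 52.1% held an Hbegf UMI (47.0 to 57.2%), compared with 19.3% of myeloid cells (18.3 to 20.3%) and 7.63% of fibroblasts (6.25 to 9.21%), and the unthinned shares were 67.4%, 30.7% and 18.2%. Tenocytes thus held the ligand and its receptor. Unthinned, 227 of the 386 had UMIs of both Hbegf and Egfr, 33 had Hbegf alone, 110 Egfr alone and 16 neither. Outside the 6 classes, 57 smooth muscle cells and pericytes had 155 CPM (126 to 190) of Hbegf, and tenocytes stood 1.91-fold (1.56 to 2.37) above them. In SCs 14 of the 42 Hbegf UMIs were in 1 cell.

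Nrg1 was highest in myeloid cells, at 53.4 CPM (51.8 to 55.1, 4184 UMIs), with 14.0 CPM (12.5 to 15.7) in fibroblasts, 5.06 CPM (2.76 to 8.48) in satellite cells, 4.82 CPM (3.05 to 7.23) in tenocytes and 2.50 CPM (0.303 to 9.04) in SCs, and no UMI in endothelial cells. Only 2 UMIs were found in the 80 SCs, each in another cell. After thinning, 7.74% of myeloid cells (7.08 to 8.43%) and 1.25% of SCs (0.0316 to 6.77%) held a UMI, beside 10.4% and 2.50% unthinned. Fibroblasts stood 2.77-fold (1.63 to 5.13) above satellite cells, but this order rested on 4 fibroblasts. With them left out, an alternative added once their values were known, the fibroblast level was 3.38 CPM (2.63 to 4.27, 70 UMIs), and could not be separated from that of satellite cells. From satellite cells downward no class could be separated from the next in this order. In cells of at least 1000 and under 5000 UMIs, the 45 SCs held 3 Nrg1 UMIs, or 25.2 CPM (5.19 to 73.5). Tenocytes had 12.4 CPM (7.35 to 19.6) there and myeloid cells 40.8 CPM (38.2 to 43.5).

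Within the myeloid class the level of Nrg1 was highest in monocytes, gated on markers that include Ly6c2, Chil3, Plac8 and Hp. The 234 monocytes held 929 UMIs, or 383 CPM (359 to 408), and the 5957 other myeloid cells held 3255. The 1552 Gpnmb Fabp5 macrophages had 77.6 CPM (73.9 to 81.3), the 2311 myeloid cells in no subset 52.9 CPM (50.2 to 55.8), the 349 dendritic cells 20.9 CPM (17.3 to 24.99), and the 1736 Lyve1 Folr2 macrophages 1.47 CPM (1.00 to 2.07). The ratio of monocytes to all other myeloid cells was 8.92-fold (8.29 to 9.60), a log2 ratio of 3.16 (3.05 to 3.26), and to Lyve1 Folr2 macrophages 261-fold (183 to 383). By fold over the other myeloid cells Nrg1 was at place 31 of the 5166 genes with at least 50 UMIs in monocytes, and 4.86% of the 12600 genes tested there were at least 2-fold higher. Even in monocytes Nrg1 was uneven. An Nrg1 UMI was found in 41.9% of thinned monocytes (35.5 to 48.5%) and 0.518% of thinned Lyve1 Folr2 macrophages (0.237 to 0.982%), beside 49.1% and 1.27% unthinned, where the median cell had 9912 and 11815 UMIs. Unthinned, 115 of the 234 held a UMI, 61 held 5 or more, and the highest held 44.

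In Gpnmb Fabp5 macrophages and in the myeloid cells of no subset, the groups that were binned, Nrg1 was lower in cells with none of the UMIs of the 5 monocyte markers than in cells with any. In Gpnmb Fabp5 macrophages it was at 38.5 CPM (34.9 to 42.5) in 856 cells with none of these UMIs, 99.97 CPM (88.9 to 112) with 1 to 2, 95.8 CPM (86.3 to 106) with 3 to 9, and 135 CPM (125 to 146) in 260 cells with 10 or more, and the intervals of the middle bins overlapped. In the cells of no subset it was at 15.0 CPM (13.3 to 16.8), 88.6 CPM (76.0 to 102.7), 131 CPM (113 to 151) and 277 CPM (257 to 298). In that last group 1 cell held 190 Nrg1 UMIs beside 162 myeloid and 41 monocyte marker UMIs, and the level without it was 206 CPM. These bins differ in depth, with medians from 10772 to 17132 UMIs in Gpnmb Fabp5 macrophages, and the part of shared droplets in them was not tested.

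**Figure D2:**
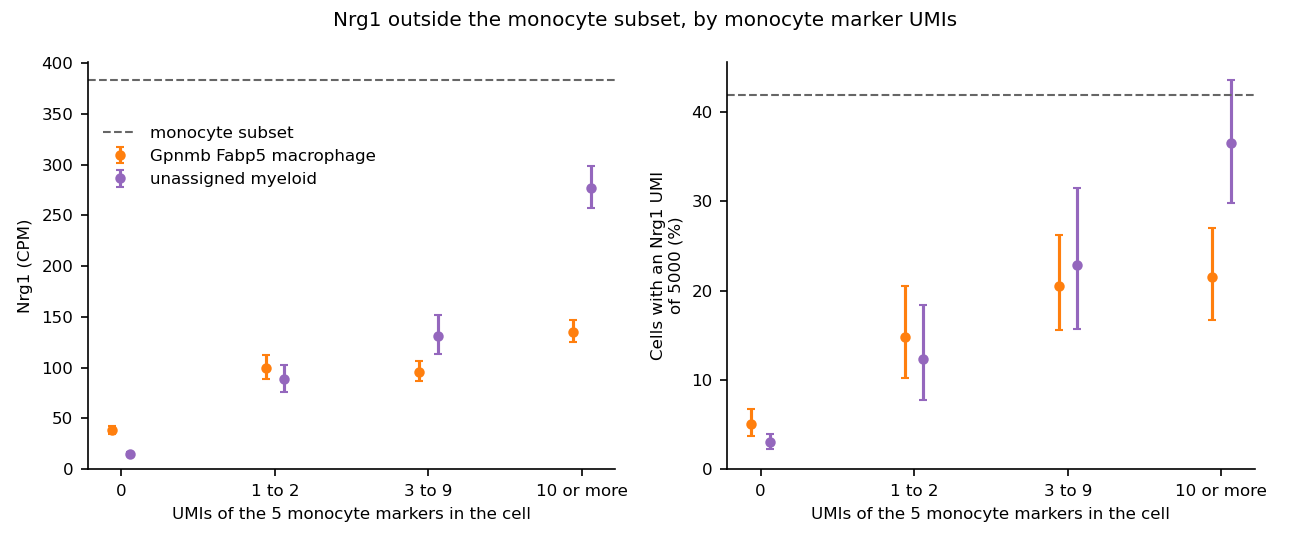
Nrg1 in Gpnmb Fabp5 macrophages (orange) and in myeloid cells of no subset (purple), by the UMIs of the 5 monocyte markers in a cell, as CPM (left) and as the share of cells with an Nrg1 UMI after thinning to 5000 UMIs (right). Bars are exact 95% intervals for counting error, and the dashed line is the monocyte subset (383 CPM and 41.9%). In the cells of no subset the level goes from 15.0 CPM without marker UMIs to 277 CPM with 10 or more.

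The Nrg1 of fibroblasts came from few cells. Of 292 UMIs, 222 were in 4 of the 1310 cells, which held 92, 88, 28 and 14. All of these but the one with 28 were in the Dkk2, Bmper and Lsamp subset, whose level of 45.4 CPM (39.4 to 51.9) rested on them. They held 67, 90 and 73 fibroblast marker UMIs and 0, 1 and 2 myeloid marker UMIs, while the cell with 28 held 10 fibroblast and 0 myeloid marker UMIs. The cells with 92 and 88 had 4 and 9 UMIs of the monocyte list, which fibroblasts as a class held at 277 CPM, 254 of it from Plac8. The part of RNA from monocytes in these values was not tested.

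Areg, which encodes amphiregulin, was highest in myeloid cells and held by few of them. Myeloid cells had 46.1 CPM (44.6 to 47.6, 3611 UMIs), satellite cells 3.97 CPM (1.98 to 7.11), fibroblasts 1.78 CPM (1.25 to 2.45) and tenocytes 1 UMI, and none was found in SCs or endothelial cells. In cells of at least 1000 and under 5000 UMIs the classes lay closer, with 31.5 CPM (29.2 to 33.9) in myeloid cells, 17.2 CPM (11.1 to 25.4) in tenocytes and 8.39 CPM (6.56 to 10.6) in fibroblasts. Monocytes, at 98.1 CPM (86.0 to 111), and Gpnmb Fabp5 macrophages, at 88.7 CPM (84.9 to 92.8), differed by 1.11-fold with an interval that held 1 (0.962 to 1.26). Cells of no subset had 34.6 CPM (32.4 to 37.0), Lyve1 Folr2 macrophages 19.6 CPM (17.8 to 21.6) and dendritic cells 13.2 CPM (10.4 to 16.6). Yet an Areg UMI was found in only 4.91% of thinned myeloid cells (4.39 to 5.48%), beside 6.75% unthinned, and in 0.763% of thinned fibroblasts (0.367 to 1.40%), beside 1.15%. The 4 highest Gpnmb Fabp5 macrophages held 140, 117, 110 and 91 UMIs, the highest cell of no subset held 98, and 62 cells, or 1.00% of the class, held 68.2% of its Areg UMIs. The 10 highest of the 234 monocytes held 84.9% of theirs. Of the 234 monocytes, 11 held both Nrg1 and Areg, 104 Nrg1 alone, 10 Areg alone and 109 neither.

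Ereg, which encodes epiregulin, had 100 UMIs in 19 of the 8272 cells, and its highest class rested on 1 cell. In fibroblasts 30 of 32 UMIs were in 1 cell with 33 fibroblast and 0 myeloid marker UMIs, and the level was 1.54 CPM with it and 0.0960 CPM without it. In myeloid cells 58 of 60 UMIs were in 9 Gpnmb Fabp5 macrophages, 1 of which held 30 and also 91 UMIs of Areg. Of the 11 myeloid cells with Ereg, 6 held Areg, beside 418 with Areg among all 6191.

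Egfr and Hbegf had other patterns over the myeloid subsets. Egfr was highest in Lyve1 Folr2 macrophages, at 160 CPM (155 to 166), beside 67.2 CPM (64.1 to 70.4) in cells of no subset, 18.7 CPM (16.9 to 20.6) in Gpnmb Fabp5 macrophages, 5.57 CPM (3.81 to 7.87) in dendritic cells and 4.12 CPM (1.98 to 7.58) in monocytes. The share of thinned cells with an Egfr UMI was 44.5% (42.1 to 46.8%) in Lyve1 Folr2 macrophages and 0.427% (0.0108 to 2.36%) in monocytes, beside 64.3% and 3.42% unthinned. The 7 fibroblast markers summed to 13.5 CPM in Lyve1 Folr2 macrophages, 23.1 CPM in Gpnmb Fabp5 macrophages, 29.3 CPM in monocytes and 9.75 CPM in dendritic cells, and the part of fibroblast RNA in the Egfr values was not tested. Hbegf was at 72.2 CPM (68.7 to 75.9) in Lyve1 Folr2 macrophages, 68.3 CPM (64.9 to 71.8) in Gpnmb Fabp5 macrophages, 66.8 CPM (63.7 to 70.0) in cells of no subset, 12.0 CPM (8.0 to 17.2) in monocytes and 4.18 CPM (2.68 to 6.22) in dendritic cells. Monocytes, the highest subset for Nrg1, were thus 6.04-fold (4.19 to 9.05) lower than Lyve1 Folr2 macrophages for Hbegf and 38.9-fold (21.1 to 81.1) lower for Egfr. The Egfr level of monocytes depended on the depth required, since 175 monocytes of at least 1000 and under 5000 UMIs had 94.4 CPM (66.8 to 129.6). The 9 neutrophils were too few to be read.

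**Figure D3:**
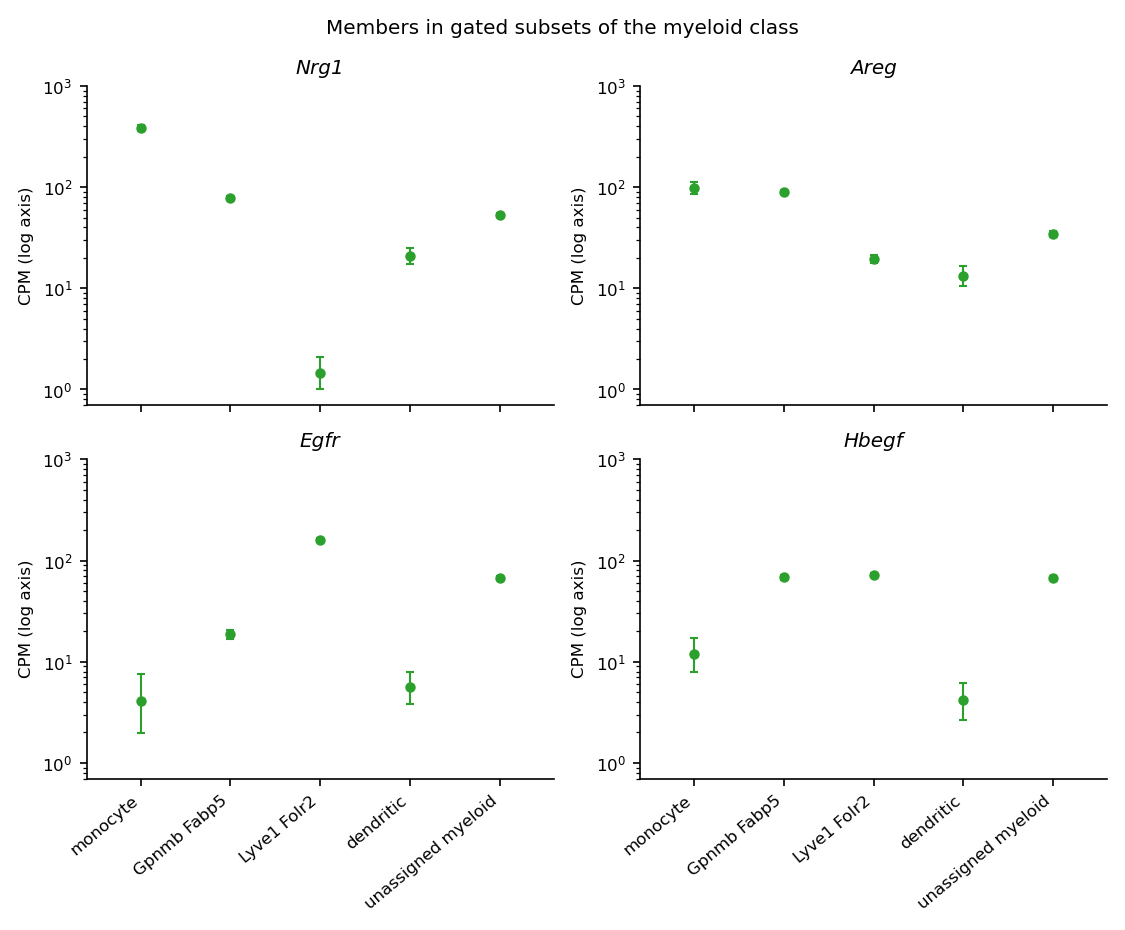
CPM of Nrg1, Areg, Egfr and Hbegf in the subsets of the myeloid class, in cells of at least 5000 UMIs, on a log axis with exact Poisson 95% intervals. Nrg1 is highest in monocytes (383 CPM) and lowest in Lyve1 Folr2 macrophages (1.47 CPM), while Egfr is at 4.12 and 160 CPM there, though monocytes of 1000 to under 5000 UMIs, not plotted, held 94.4 CPM of Egfr.

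**Figure D4:**
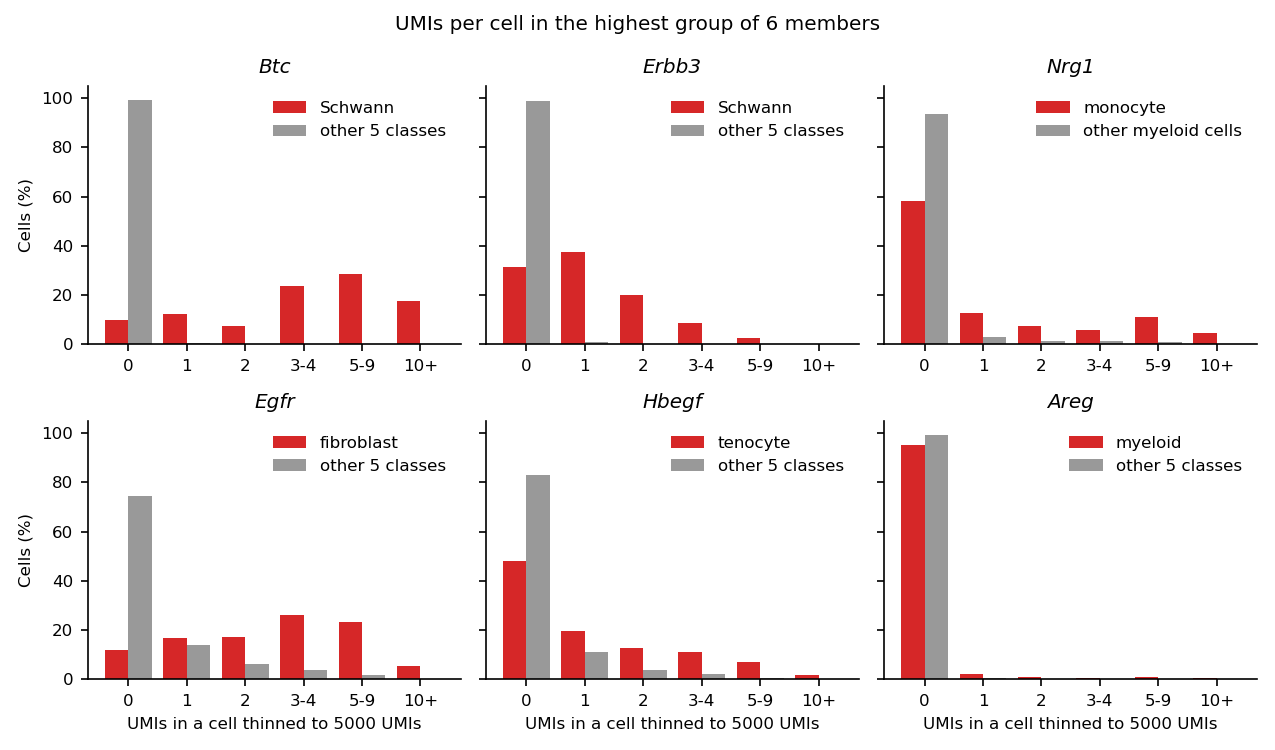
Share of cells by their UMIs of a member after thinning to 5000 UMIs, for the group where the member is highest (red) and the other 5 classes or, for Nrg1, the other myeloid cells (gray). Thinned, 90% of Schwann cells hold Btc and 88.3% of fibroblasts hold Egfr, whereas 41.9% of monocytes hold Nrg1 and 4.91% of myeloid cells hold Areg.

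The spread of UMIs over cells set the members apart. The highest 8 of 80 SCs held 29.0% of the Btc UMIs of their class, and the highest 131 of 1310 fibroblasts held 32.4% of the Egfr UMIs. In tenocytes the highest 39 of 386 held 49.1% of the Hbegf UMIs, and the highest 23 of 234 monocytes held 56.9% of the Nrg1 UMIs. Among the other myeloid cells the highest 60 of 5957 held 53.2% of the Nrg1 UMIs.

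**Figure D5:**
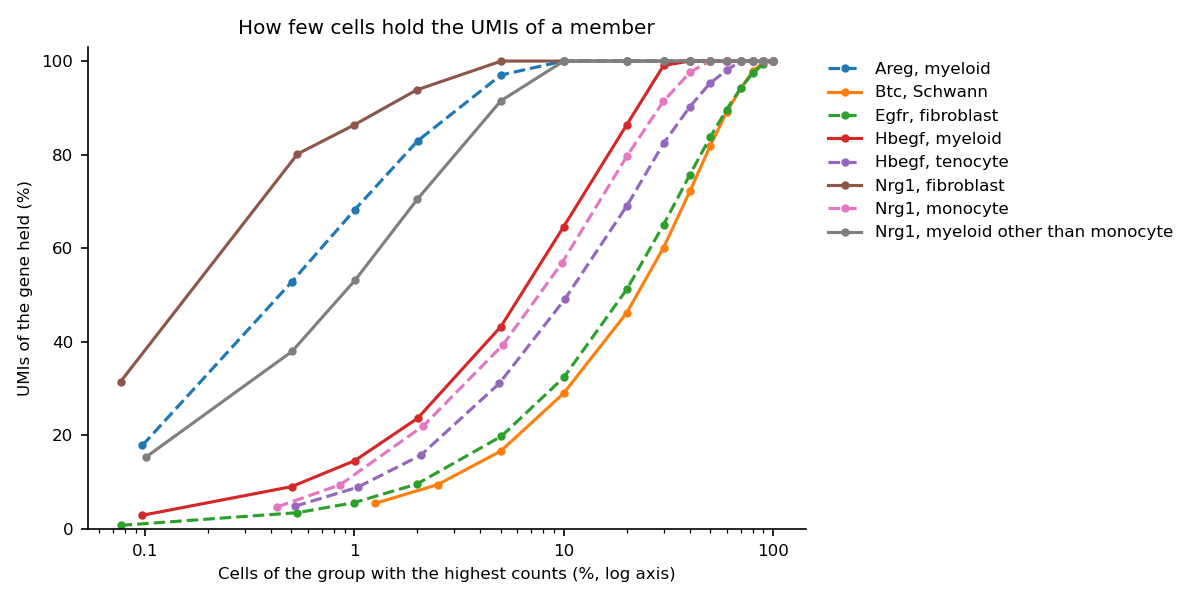
Share of the UMIs of a member (vertical axis) held by the cells with the highest counts (horizontal axis, percent of the cells of the group, log axis). Btc in Schwann cells and Egfr in fibroblasts lie lowest, and Nrg1 in fibroblasts and Areg in myeloid cells rise earliest, with 1.00% of myeloid cells holding 68.2% of the Areg UMIs.

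At a mark of 2-fold over the other 5 classes together, among the 8 members with at least 100 UMIs (all but Erbb4), 3 were higher in SCs (Btc, Erbb3 and Erbb2), beside 23.5% of all 14591 genes tested. In myeloid cells there were 2 (Nrg1 and Areg) beside 18.4% of genes, in fibroblasts 2 (Egfr and Erbb2) beside 20.1%, in tenocytes 3 (Hbegf, Egfr and Erbb2) beside 16.5%, and Erbb2 alone in endothelial cells beside 18.0% and in satellite cells beside 12.4%. Myeloid cells gave 78295965 of the 107958258 UMIs of the 6 classes. For any other class the mark was thus mostly a comparison with myeloid cells, which held Erbb2 at 0.115 CPM. The endothelial pass of Erbb2 rested on 3 UMIs. The members were listed for their levels in this library, so nothing is read from the counts of members past the mark.

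Of 48 further genes of the pathway in 6 lists, 43 had at least 100 UMIs, and between 9 (satellite cells) and 13 (fibroblasts) of them passed the same mark in a class, 66 passes in all. There were 11 in SCs, 11 in myeloid cells, 13 in fibroblasts, 12 in tenocytes, 10 in endothelial cells and 9 in satellite cells, beside 23.5%, 18.4%, 20.1%, 16.5%, 18.0% and 12.4% of all genes tested. Among other ligands, the neuregulins Nrg4 and Nrg2 were the only genes with enough UMIs and both passed in myeloid cells, at 6.45 CPM and 18.9 CPM, 7.36-fold and 2.81-fold the other classes, while Nrg2 was at 26.2 CPM in tenocytes. Nrg2 was at 6.18 CPM in monocytes and 29.5 CPM in Lyve1 Folr2 macrophages. Of the 10 sheddases and their partners, 3 passed in SCs, 3 in myeloid cells, 3 in fibroblasts, 2 in tenocytes, 2 in endothelial cells and 0 in satellite cells. Adam8 was 19.1-fold and Rhbdf2, a partner of Adam17, 9.89-fold higher in myeloid cells, and Adam17 itself, which releases several Egfr ligands and was named after its values were seen, 2.50-fold at 172 CPM. Adam12 was 17.6-fold and Rhbdf1 4.70-fold higher in fibroblasts, Bace1, which cleaves Nrg1, 4.65-fold higher in fibroblasts and 2.46-fold in tenocytes, and Frmd8 4.75-fold and Adam10 2.15-fold higher in SCs, while Adam10 was 2.85-fold higher in endothelial cells.

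Among the ligand partners, the heparan sulfate proteoglycan Gpc1 was 96.4-fold higher in SCs, at 365 CPM from 292 UMIs, and Cd9, a tetraspanin that binds the Hbegf precursor, 2.77-fold. None passed in fibroblasts. Sdc1 was 9.16-fold and Cd9 3.22-fold higher in tenocytes, Sdc3 8.81-fold and Cd44 2.75-fold in myeloid cells, Cd9 3.92-fold in endothelial cells, and Gpc1 5.48-fold and Sdc4 3.52-fold in satellite cells. Of 7 adaptors tested, Gab1 was 3.54-fold and Sos1 2.07-fold higher in SCs, Grb2 4.44-fold in myeloid cells, Plcg1 3.45-fold in fibroblasts and 2.64-fold in tenocytes, and Shc1 2.32-fold in endothelial cells.

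Of 11 genes listed as brakes on the receptors or the pathway below them, 7 passed in fibroblasts (20.1% of all genes tested), 5 in satellite cells (12.4%), 4 in tenocytes (16.5%), 4 in endothelial cells (18.0%), 3 in SCs (23.5%) and 1 in myeloid cells (18.4%). That role was not tested for any of them, Lrig2 and Lrig3 included. With a pool that was mostly myeloid, a pass did not make a class the highest. In fibroblasts Spry4 passed at 13.7 CPM, beside 28.9 CPM in tenocytes, 22.7 CPM in endothelial cells and 15.5 CPM in satellite cells. Cblb, at 372 CPM, was highest in fibroblasts. Lrig3 was 8.04-fold and the Sprouty gene Spry2 7.39-fold higher in fibroblasts, Lrig1, which promotes loss of the receptors, 12.5-fold and Spry1 11.5-fold in satellite cells, Spry4 8.17-fold and Lrig3 6.48-fold in tenocytes, and Spry2 7.40-fold and Lrig2 3.84-fold in SCs. In endothelial cells Spry1 was 4.78-fold and Dusp6 4.45-fold higher, and in myeloid cells Cbl 3.00-fold. Of the 7 target genes none passed in SCs or endothelial cells. Myc was 8.98-fold and Egr1 2.28-fold higher in fibroblasts, Etv4 26.8-fold and Fos 2.35-fold in tenocytes, Egr2 3.05-fold and Ier3 2.62-fold in myeloid cells, and Myc 3.72-fold in satellite cells.

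The genes most like each member were ranked by Pearson's r of log2(CPM + 1) over 11 classes and subsets of this library, as a description. They included Dlgap2 (r = 0.99) and Ncam2 (0.98) for Btc, and Ncam2 (0.97) and Fars2 (0.96) for Erbb3. For Erbb2 they were Slc2a13, Avil and Rnf19a (each 0.98), for Egfr Myh10 (0.97), Clmp (0.95) and Bphl (0.94), and for Hbegf Fam3c (0.91), Myo1e (0.90) and Mrps6 (0.90). For Nrg1 they were Vill (0.96), Traf3 (0.92) and Sestd1 (0.92), for Areg the chemokine gene Ccl9 (0.98), Usb1 (0.97) and Gm20528 (0.96), and for Ereg Gpnmb (0.92), Ubl4a (0.83) and Nit2 (0.79). The 11 points share a library, and the order for Ereg rests on the few cells named above.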

How the data were processed

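One 10x Genomics 3′ library of GFP+ cells was analysed, from the UMI counts per gene and barcode that the authors deposited, with no normalization. The file header names Cell Ranger 8.0.1, and the submitters' processing notes name Cell Ranger 7.1.0, Seurat 4.30 and mm10. The study's methods state default settings, under which these versions also count intronic reads, and this bears on long genes such as Nrg1 and Erbb4. The GFP- counts were not analysed here, and the study's doublet and free RNA removal was not repeated.

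A cell entered a gate with at least 3 UMIs over at least 2 markers, and a class when every other list stayed under 50% of its own level, each list scaled by its 75th percentile over the cells past its gate. This scaling was chosen after the data were seen, as 1 of 3 percentiles tried, because under the median many simulated cells of known class were lost. The median is among the alternatives. UMIs were summed per class and given as CPM with exact Poisson 95% intervals, shares with Clopper-Pearson intervals after thinning each cell to 5000 UMIs, and ratios with exact conditional intervals. These cover counting error only. With 1 library there was no test.

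All members were named, with up to 2 genes per list and class by fold from 20 UMIs, and the 3 genes most like each member. Outside this rule, Adam17 in myeloid cells and Bace1, Spry4 and Cblb in fibroblasts were also named. Some genes that this rule or the marker lists hold are not reported here. The members, lists and gates, and the fibroblast subsets, were chosen with earlier results of these data known. Sequences and positions are from GENCODE vM39 on GRCm39, by Ensembl gene ID for all 9 members, and no protein sequences were used. Alternatives covered the depth, gate and mitochondrial thresholds, cells past several gates, Scrublet, means over cells and thinning, and, added after the data were seen, shared barcodes, the mixed rule, the scaling, the cell with most UMIs and, for Nrg1 in fibroblasts, the 4 cells with most UMIs. Python 3.11.15, numpy, scipy, pandas and scanpy were used.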

Additional observations from a re-analysis of the deposited data

How the results depend on the processing

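Each member's log2 ratio of its highest class to all other gated cells, and that of Nrg1 in monocytes to other myeloid cells, was recomputed under 11 alternatives, 4 of them added after the data were seen. Of these 109 ratios, 79 stayed within the counting interval, 28 moved outside it with the same sign and 2 reversed. Both reversals were Ereg, whose 0.98 in fibroblasts became -3.07 under 5% mitochondrial counts and -3.02 without the cell with most UMIs. It was 1.97 without the 1267 cells of highest Scrublet score, whose automatic threshold called none, and 1.72 with means over cells. With cells of at least 3000 UMIs Egfr went from 2.95 to 2.84, Btc from 9.66 to 9.31, Areg from 4.80 to 4.11 and Nrg1 in monocytes from 3.16 to 3.03. From 10000 UMIs Erbb3 went from 6.58 to 6.28, Egfr to 3.04, Areg to 5.92 and Nrg1 in monocytes to 3.00. Without cells past more than 1 gate Nrg1 went from 2.26 to 2.85, Egfr to 3.07, Btc to 10.3, Areg to 6.22 and Nrg1 in monocytes to 3.04. Under 5% mitochondrial counts Egfr was 3.06, Hbegf 2.56 from 2.47, and Nrg1 in monocytes 3.00. Without the Scrublet cells Egfr was 2.99, Btc 10.5, Areg 5.77 and Nrg1 in monocytes 2.89, and with means over cells Nrg1 was 2.63 and Egfr 2.80. With other lists under 25% of the marker level Egfr was 3.03, Btc 10.2, Areg 5.90 and Nrg1 in monocytes 2.66. The interval of Erbb4 included 0 in the reported value, and without cells past more than 1 gate it did not. The cause of these moves was not tested.

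Shares of cells with a UMI in the highest class followed the depth by construction. Thinned to 1000 UMIs they were 3.31% for Nrg1, 1.25% for Erbb2, 25% for Erbb3, 48.2% for Egfr, 58.8% for Btc, 19.2% for Hbegf and 2.13% for Areg, and unthinned 10.4% for Nrg1, 83.8% for Erbb3, 96.5% for Egfr, 67.4% for Hbegf and 6.75% for Areg. The count of 66 passes among pathway genes was between 66 and 73 under 10 alternatives. No paired analysis was possible because there was 1 library. With 80 SCs and 47 endothelial cells, levels under a few CPM could not be ordered there.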

Other observations

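The 24 mixed cells that passed the Schwann gate held Btc at 238 CPM (192 to 291) and Erbb3 at 96.1 CPM (68.0 to 132), 4.04-fold and 2.43-fold lower than in SCs, and Egfr at 169 CPM (131 to 215).

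In shallower barcodes of at least 1000 and under 5000 UMIs, put through the same gates, Btc was at 747 CPM in 45 SCs, 6.59 CPM in 10630 myeloid cells and 5.32 CPM in 4184 fibroblasts, and Erbb3 at 218 CPM in SCs and 3.27 CPM in myeloid cells, while Egfr was at 147 CPM and Erbb2 at 1.43 CPM in these myeloid cells, both higher than in the deep myeloid cells. Nrg1 was at 241 CPM in 175 shallow monocytes, and Egfr, at 94.4 CPM there, was higher than the 4.12 CPM of deep monocytes. Nrg1 was at 40.8 CPM in shallow myeloid cells and 12.4 CPM in shallow tenocytes, Hbegf at 172 CPM in shallow tenocytes and 52.1 CPM in shallow myeloid cells, and Egfr at 480 CPM in shallow fibroblasts, so that the ratios between these classes were smaller than in the deep cells.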
